A study of Mus musculus with 35 samples.

Results

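The mouse major histocompatibility complex (MHC), named H2, was examined on chromosome 17 at mm9 chr17:33900000-37500000. Its members were chosen by position and width, with earlier results of these data known. They were every deposited region of at most 100 kb that overlapped this interval, except those lying inside 35320000-35350000. The rule found 1500 members among the 250088 regions of 35 lists, which is 0.643% of the 233211 regions of at most 100 kb. The interval measured 3570 kb, or 0.135% of the genome that the lists spanned. It was divided into the block around H2-K (34100000-34200000), the class II block (34300000-34600000), the block from H2-D to H2-Q (35380000-35600000), the block of H2-T and H2-M (36000000-37500000) and the stretches between them.

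The regions came from chromatin immunoprecipitation and sequencing (ChIP-seq) of primary macrophages grown from bone marrow of wild-type C57BL/6 females aged 8-12 weeks, a background that every group shared. Cells were stimulated for a stated time with lipopolysaccharide (LPS), a membrane component of Gram-negative bacteria that activates macrophages, or were left unstimulated. The antibodies were against the NF-κB subunit p50 (4 libraries at 60 min of LPS, 3 unstimulated), the NF-κB subunit p65 (1 unstimulated, 2 at 60 min, 2 at 120 min) and the stress-induced repressor ATF3 (3 at 240 min). They were also against acetylated histone H4 (H4ac, 2 libraries each at 0, 60, 120 and 240 min), RNA polymerase II (Pol II, 1 unstimulated, 2 at 60 min, 1 at 120 min, 2 at 240 min, 1 at 360 min) and trimethylated lysine 27 of histone H3 (H3K27me3, 1 library each at 0, 120, 240 and 480 min, and 1 titled 60 min of LPS with a delay of 7 h). The time label of that last library reads 480 min, and it is called the 60 min plus 7 h library here.

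The MHC encodes the class I molecules, which show peptides from inside the cell to CD8 T cells, and the class II molecules, which show peptides from engulfed material to CD4 T cells. Classical class I genes are active in most cells, and their promoters carry an NF-κB element next to an interferon response element. Class II genes are controlled by the co-activator CIITA and are induced in macrophages chiefly by interferon gamma, and genes of the complement system and of the stress response lie between the class I and class II groups. H4ac marks open and active chromatin, Pol II marks transcribed genes, and H3K27me3 is the repressive mark laid down by Polycomb complexes.

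The NF-κB element of the class I genes is the sequence through which NF-κB, with its subunits p50 and p65, is known to act on these genes. It is shown here in RefSeq promoters on build GRCm38.p6. The deposited regions are on mm9, so these stretches illustrate the genes and are not the sequence under any region. Each runs 5′ to 3′ over the 200 bases before the annotated start, with 1 of the 2 annotated starts shown for H2-K1. Capitals mark GGGATTNCC, an NF-κB element, and TTTCACTT, an interferon response element, searched on both strands. The class II gene H2-Aa is shown for contrast.
H2-K1: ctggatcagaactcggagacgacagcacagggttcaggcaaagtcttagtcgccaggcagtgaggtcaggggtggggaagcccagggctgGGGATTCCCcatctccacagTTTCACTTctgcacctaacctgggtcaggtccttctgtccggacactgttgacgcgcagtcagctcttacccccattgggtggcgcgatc
H2-D1: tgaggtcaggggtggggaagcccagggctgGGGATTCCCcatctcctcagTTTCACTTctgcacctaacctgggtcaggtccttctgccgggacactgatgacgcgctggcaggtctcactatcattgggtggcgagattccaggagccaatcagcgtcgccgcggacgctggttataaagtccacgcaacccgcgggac
H2-Q4: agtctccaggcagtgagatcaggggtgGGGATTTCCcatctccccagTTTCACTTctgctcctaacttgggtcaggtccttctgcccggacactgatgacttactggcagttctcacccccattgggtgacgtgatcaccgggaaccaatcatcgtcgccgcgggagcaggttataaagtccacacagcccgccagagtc
H2-Q6: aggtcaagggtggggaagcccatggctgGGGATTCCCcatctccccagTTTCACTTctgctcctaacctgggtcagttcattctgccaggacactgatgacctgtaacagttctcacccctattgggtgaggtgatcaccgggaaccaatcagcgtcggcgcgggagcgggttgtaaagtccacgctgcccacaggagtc
H2-Q7: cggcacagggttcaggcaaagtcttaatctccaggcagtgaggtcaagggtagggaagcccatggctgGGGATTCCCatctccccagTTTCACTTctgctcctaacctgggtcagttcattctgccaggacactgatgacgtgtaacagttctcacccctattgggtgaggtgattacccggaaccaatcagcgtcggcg
H2-Aa: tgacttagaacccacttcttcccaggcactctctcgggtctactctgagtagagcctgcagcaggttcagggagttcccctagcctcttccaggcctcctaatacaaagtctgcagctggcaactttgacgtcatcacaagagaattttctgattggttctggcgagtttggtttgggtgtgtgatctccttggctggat
The letters were chosen after these promoters had been read. Neither their presence in them nor the contrast with other genes below is therefore a finding. In each of the 5 class I stretches the NF-κB element lay upstream of the interferon element and did not overlap it, with 11 bases between them, or 10 in H2-Q7. Of all 32851 promoter entries, searched over the 250 bases before the start, 270 held the first motif (0.822%), 447 the other (1.36%) and 9 both (0.0274%). Of those 9 entries, 6 belonged to the 5 class I genes printed here. Among the H2 genes matched in the table, 5 of 23 class I genes held the NF-κB motif, 9 held the interferon motif and 5 held both. None of the 8 class II genes held either in this window. The reads were 36 bases long, and the longest run of identical letters between 2 printed stretches was 66 bases for H2-Q6 and H2-Q7 and 46 bases for H2-K1 and H2-D1. How reads that match several class I genes were placed is not given in the sources used here.

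H4ac and Pol II supplied most of the members. H4ac gave 951 of the 1500 members (63.4%), with 80 to 149 in a list. Pol II gave 405 (27.0%), with 37 to 71 in a list, and H3K27me3 gave 79 (5.27%), with 12 to 23 in a list. There were 37 of p50 (2.47%, 2 to 9 in a list), 17 of ATF3 (1.13%, 2 to 13 in a list) and 11 of p65 (0.733%, 0 to 4 in a list). Lists differ in length between targets, and relative to a target's own regions of at most 100 kb the order was another one. Pol II had 1.15% of its regions in the interval, p50 0.719%, H3K27me3 0.577%, H4ac 0.574%, ATF3 0.223% and p65 0.196%, where the share over all targets was 0.643%. The map of members by library shows the same clusters of H4ac and Pol II in library after library, and single thin lines for the factors.

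**Figure D1:**
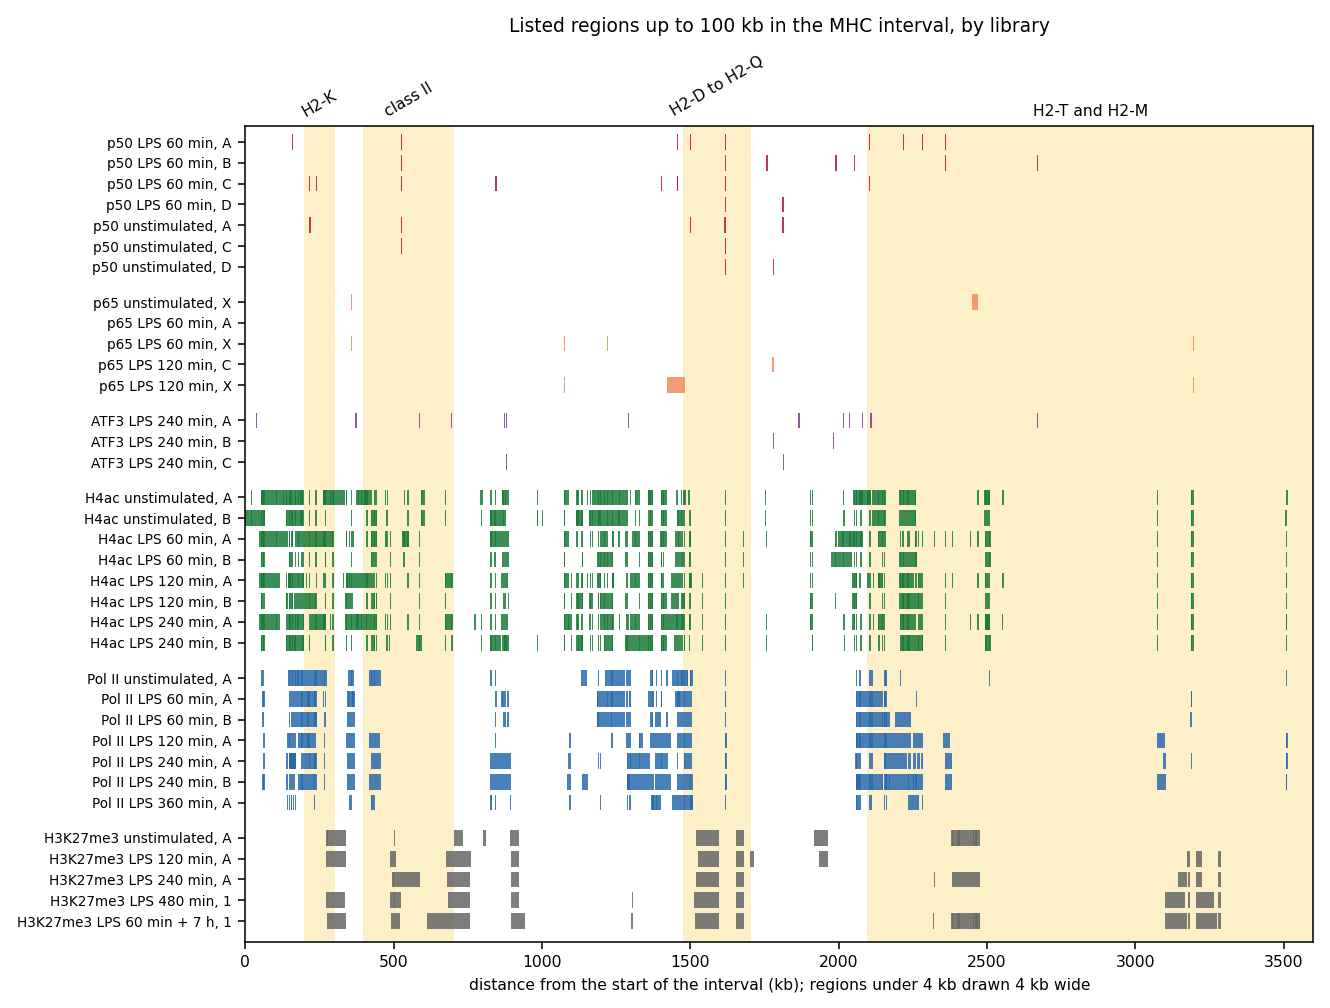
Every region of at most 100 kb over the MHC interval, 1 row for each of the 35 libraries, against the distance from the start of the interval in kb. Colours mark the target and shading the 4 named blocks. The 951 H4ac and 405 Pol II regions recur at the same places across libraries, while the 37 p50 regions are scattered apart from a line in the H2-D to H2-Q block in all 7 rows.

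The share of bases covered by regions was set against the same share in the rest of the genome, library by library. H4ac covered 10.7% to 21.3% of the interval, against 3.78% to 6.04% of the rest of the genome. Pol II covered 5.86% to 20.3% of the interval, against 0.840% to 3.27% of the rest. H3K27me3 covered 10.7% to 18.6% of the interval, against 1.78% to 3.44% of the rest. The interval exceeded the rest of the genome in every library of these targets, as the plot of cover ratios shows. The test took libraries of all times together and asked only whether those of a target share a direction. It cannot say whether the interval is unusual, since no other interval was set against the rest in this way. On the log2 scale the ratio was 1.72 ± 0.126 for H4ac (SD, n = 8 libraries, 3.29-fold), with an exact sign-flip permutation adjusted p of 0.0391 over 5 targets. It was 2.59 ± 0.359 for Pol II (n = 7, 6.04-fold, exact adjusted p = 0.0391). It was 2.33 ± 0.392 for H3K27me3 (n = 5, 5.03-fold, exact adjusted p = 0.0781), where the unadjusted p of 0.0625 was the smallest that 5 libraries allow.

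For p50 the log2 ratio was 1.14 ± 1.59 (n = 7, 2.21-fold), above 0 in 6 of 7 libraries, with an exact adjusted p of 0.0781. Unstimulated library A alone stood at 21.4-fold, and the other 6 lay between 0.951 and 3.35. Of the 4.7 kb that unstimulated library A covered, 4.1 kb lay in the H2-D to H2-Q block. Without this library the log2 ratio was 0.60. For ATF3 the log2 ratio was -1.35 ± 1.41 (n = 3, 0.393-fold), above 0 in 1 of 3 libraries, with an exact adjusted p of 0.5. For p65 no ratio was tested, because 1 of its 5 lists had no member. At this width limit neither p50 nor ATF3 was shown to differ in cover from the rest of the genome. The p50 call depended on the setting: the log2 ratio was 1.72 with regions up to 10 kb (exact adjusted p = 0.0260), 2.23 up to 1 kb (exact adjusted p = 0.0208) and 1.36 in the better-scored 50% of each list (exact adjusted p = 0.0260), while up to 1 Mb, a limit chosen after seeing the data, it was -0.58 (exact adjusted p = 0.234). With any 1 Pol II library left out the adjusted p for Pol II was 0.0781, the smallest that 6 libraries allow after this adjustment.

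**Figure D2:**
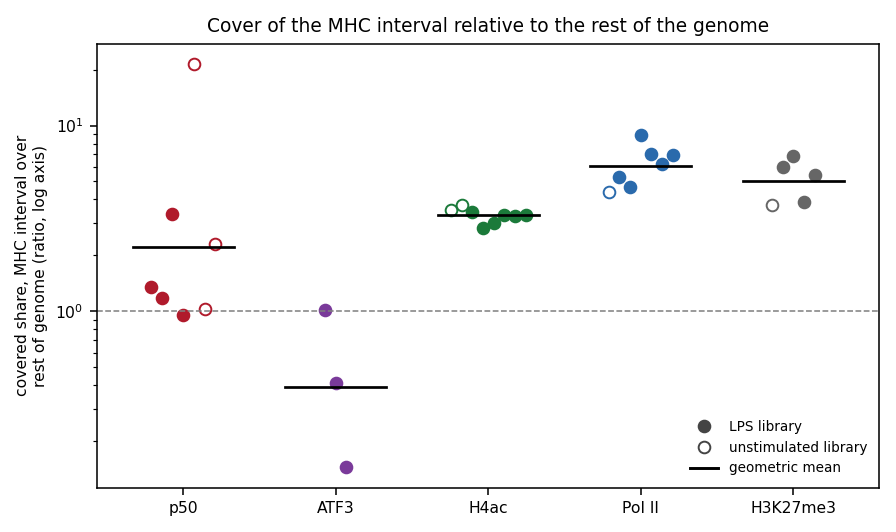
Ratio of the covered share in the MHC interval to that in the rest of the genome, on a log axis, for each library, with the geometric mean of each target as a bar and libraries in the order LPS then unstimulated for p50, and by time for the others. All 8 H4ac, 7 Pol II and 5 H3K27me3 libraries lie above the dashed line of equal cover, and p50 unstimulated A lies apart at 21.4.

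The rank of members in their lists was also compared with that of other regions, where rank 1 is the region with the authors' best score. The median rank of members, as a percentage of the list, was better than that of all other regions in 8 of 8 H4ac lists, 7 of 7 Pol II lists and 5 of 5 H3K27me3 lists. It was better in 2 of 7 p50 lists, 3 of 5 p65 lists and 2 of 3 ATF3 lists. For H4ac and Pol II the members still lay near the middle of their lists. The H4ac medians were 40.6% to 46.1% for members and 47.9% to 49.1% for other regions. For Pol II they were 39.9% to 47.5% and 47.1% to 48.4%. In Pol II list B at 240 min members stood at 47.45% and other regions at 47.63%. For H3K27me3 the medians were 21.3% to 40.03% and 42.4% to 45.8%. These differences were not tested. The scores are the authors' own and were used only for order within a list.

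The number of p50 members was compared between LPS and rest, since p50 is a DNA-binding subunit of NF-κB, which LPS activates. The lists at 60 min of LPS held 9, 7, 9 and 2 members (A, B, C and D), against 6, 2 and 2 in unstimulated cells (A, C and D). The ranges overlap. The mean was 6.75 ± 3.30 at 60 min (SD, n = 4) and 3.33 ± 2.31 in unstimulated cells (n = 3), with an exact two-sided permutation p of 0.229, where 0.0571 is the smallest possible. As a share of the list, members made up 0.670% ± 0.0482 at 60 min and 0.843% ± 0.563 in unstimulated cells (exact permutation p = 0.857), so the direction turned round. The opening number of each title reads as a date that A and C share in both states: there the counts were 9 and 9 at 60 min, against 6 and 2 unstimulated. For D, which has another date, they were 2 at 60 min and 2 unstimulated.

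Overlapping p50 regions of at most 10 kb formed 19 sites in the interval, of which 11 (57.9%) were held by 1 list only. In the rest of the genome this share was 59.8% of 2457 sites. The H2-K block held 2 of the sites, class II 1, H2-D to H2-Q 2 and H2-T and H2-M 5, and the other 9 lay between the blocks. The call gained asked for 3 or more LPS lists with the site missing from all unstimulated lists, and the call lost for 2 or more unstimulated lists with it missing from all LPS lists. None of the 19 was gained, against 9.57% of the 2476 p50 sites of the genome. None was lost either, against 0.646% of the genome's sites. The most that any site reached in LPS lists alone was 2 lists, at 3 sites.

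A single p50 site was held by all 7 lists. It lay in the H2-D to H2-Q block at chr17:35512861-35516730. Its ranks were 78, 62, 85 and 117 at 60 min of LPS (A, B, C and D), against 17, 23 and 71 in unstimulated lists (A, C and D). Ranks of lists that differ in length show no change, and the LPS list with rank 117 was the shortest of the 7, at 324 regions. It was present before stimulation and remained listed after it. All 8 H4ac lists touched it through the site chr17:35516541-35517180, and all 7 Pol II lists through chr17:35516091-35522500. The width of this merged p50 site came mostly from unstimulated list A, which covered 4.1 kb of the block. The other p50 lists covered 0.11 to 0.35 kb of it. Whether their narrower regions met H4ac or Pol II was not examined. In the rest of the genome 43 of 2457 p50 sites (1.75%) were held by all lists.

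The class II block had 1 p50 site, chr17:34424731-34424960, held by 5 of 7 lists. It ranked 616, 283 and 594 at 60 min (A, B and C), against 301 and 135 in unstimulated cells (A and C), and both D lists lacked it. Within the width limits of the sites no H4ac or Pol II list touched it, and 1 H3K27me3 list did. Wider regions lay over it. Among them were H4ac regions of 159790 bp in unstimulated list A and of 149370 and 159870 bp at 60 min (A and B). It was thus listed in both states outside the H4ac and Pol II sites, but not outside all listed H4ac. The H2-K block had a site at chr17:34115731-34115900, held by LPS list C and unstimulated list A and touched by 8 H4ac and 6 Pol II lists. Its other site, chr17:34137151-34137440, was held by LPS list C alone. In the H2-D to H2-Q block, chr17:35399601-35399980 was held by LPS list A and unstimulated list A, inside H4ac of 8 and Pol II of 7 lists.

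The sites of the H2-T and H2-M block were seen only in LPS lists, though none in 3 of them. They included chr17:36003351-36003660, with rank 519 in LPS list A and 191 in LPS list C, inside H4ac of 7 and Pol II of 7 lists. They also included chr17:36258491-36258660, with rank 807 in LPS list A and 331 in LPS list B. The other 3 sites of this block were each held by 1 LPS list. The p50 lists held 324 to 1378 regions at 60 min and 354 to 447 unstimulated, and the part of list length in these absences was not tested.

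**Figure D3:**
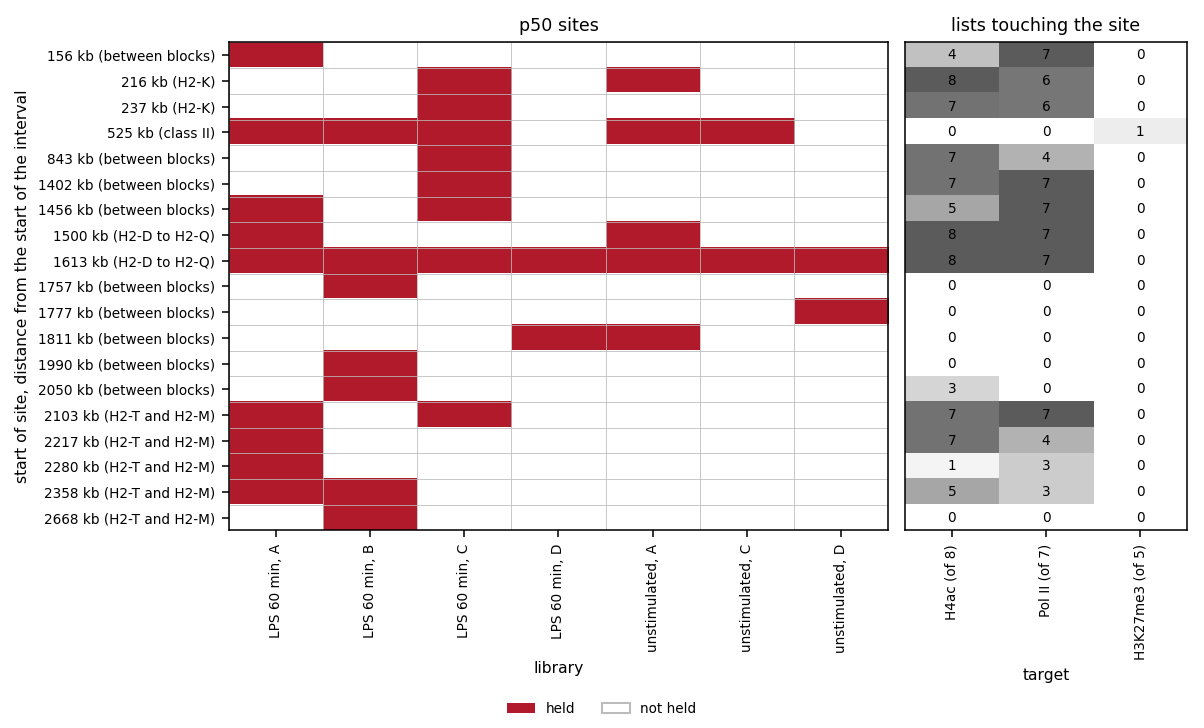
The 19 p50 sites of the MHC interval, in rows by distance from its start, with the 4 LPS libraries left of the 3 unstimulated ones and filled squares where a list holds the site. The panel beside it gives the number of H4ac, Pol II and H3K27me3 lists that touch each site, and the row filled in all 7 libraries has 8 H4ac and 7 Pol II lists.

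For p65, the subunit of NF-κB that carries the activation domain, 5 sites were found and none was held by all lists. The unstimulated list X held 2 members, the 60 min lists held 0 (A) and 4 (X), and the 120 min lists held 2 (C) and 3 (X). The site chr17:34256031-34260660, between the H2-K and class II blocks, was held by unstimulated list X (rank 140) and 60 min list X (rank 410). It was absent from both 120 min lists and so was called lost at that time, against 2.43% of the 4355 p65 sites of the genome. A region of 456400 bp in the 120 min X list lay over it. No p65 site was gained at 60 min (0.023% of the genome's sites) or at 120 min (0.597%), and none was lost at 60 min (2.37%).

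The other p65 sites, formed from regions of at most 10 kb, were in LPS lists only. The site chr17:34973521-34974010 was held at 60 min (X, rank 116) and 120 min (X, rank 724), and chr17:37095331-37095570, in the H2-T and H2-M block, at 60 min (X, rank 87) and 120 min (X, rank 376). Both lay in H4ac of 8 lists. The site chr17:35118941-35119040 was held at 60 min (X, rank 330), and chr17:35675731-35677620 at 120 min (C, rank 3). No p65 site lay in the H2-K, class II or H2-D to H2-Q block. Members wider than 10 kb formed no site. Through such members unstimulated list X covered 18.1 kb of the H2-T and H2-M block, and 120 min list X 3.89 kb of the H2-D to H2-Q block. With 1 unstimulated library, and each p65 library dated on its own, date and stimulation cannot be told apart.

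For ATF3, which LPS induces and which curbs inflammatory genes in macrophages, the 240 min lists held 13, 2 and 2 members (A, B and C). They formed 16 sites, of which 15 (93.8%) were held by 1 list, against 91.1% of 6610 sites in the rest of the genome. The site held by 2 lists was chr17:34777641-34778000, ranked 531 in list A and 2374 in list C and touched by 3 H4ac and 4 Pol II lists. The class II block had chr17:34484661-34485030 and chr17:34594311-34594520, both in list A. Of the 16 sites, 7 lay between the H2-Q and H2-T blocks and none in the H2-K or H2-D to H2-Q block. There was no unstimulated ATF3 library, so no change with LPS can be given.

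H4ac was listed across the complex in resting cells and at every LPS time. The unstimulated lists held 136 (A) and 96 (B) members, the 60 min lists 137 and 80, the 120 min lists 139 and 97 and the 240 min lists 149 and 117. List A was above list B at every time. The mean was 119.8 ± 26.9 over LPS lists (SD, n = 6) and 116 ± 28.3 in unstimulated lists (n = 2), a difference within the spread (exact two-sided permutation p = 0.786, with 0.0714 the smallest possible). The difference of 3.83 turned to -16.2 without unstimulated B and to -2.0 without 240 min A. The covered length averaged 544 ± 122 kb over LPS lists and 678 ± 116 kb in unstimulated lists (exact permutation p = 0.214). Lists are nested, so a place can count more than once. With overlapping members joined, the unstimulated lists held 62 and 49 (A and B). The LPS lists then held 82 and 53 at 60 min, 101 and 63 at 120 min and 89 and 76 at 240 min. The joined numbers were not tested.

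Relative to the list, members took a larger share of the number of regions under LPS, but not of the covered length. They made up 0.615% ± 0.0555 of LPS lists and 0.481% ± 0.0115 of unstimulated lists, and all 6 LPS lists lay above both unstimulated ones. The exact permutation p was 0.0714, the smallest that 6 against 2 allows. The title date is shared by the A lists at 0, 60 and 120 min, where the shares were 0.598% and 0.627% under LPS and 0.490% unstimulated. It is shared by all B lists, where they were 0.548%, 0.672% and 0.682% under LPS and 0.473% unstimulated. The covered share of the interval, as a ratio to that of the rest of the genome, went the other way. This ratio was 3.52 and 3.73 unstimulated, 3.41 and 2.83 at 60 min, 3.00 and 3.32 at 120 min and 3.28 and 3.30 at 240 min (A and B). All 6 LPS lists lay below both unstimulated ones, and this was not tested.

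H4ac covered the blocks unevenly, which was compared within each library. The mean cover was 34.9% ± 32.2 in the H2-K block, 14.8% ± 5.96 in the class II block, 2.78% ± 1.02 from H2-D to H2-Q and 7.78% ± 1.38 in the H2-T and H2-M block (SD, n = 8 libraries). The H2-D to H2-Q block was the least covered of the 4 in every library. Its cover was below that of the H2-K block, the class II block and the H2-T and H2-M block in 8 of 8 libraries each (exact sign-flip permutation adjusted p = 0.0156 for each, over 6 pairs). Class II exceeded the H2-T and H2-M block by 7.04 percentage points, in 7 of 8 libraries (exact adjusted p = 0.0234).

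The H2-K block varied most between libraries, so its difference from class II (exact adjusted p = 0.125) and from H2-T and H2-M (exact adjusted p = 0.075) did not pass. Its cover was 45.4% and 7.49% unstimulated, 96.5% and 6.24% at 60 min, 16.1% and 43.0% at 120 min and 58.3% and 6.35% at 240 min (A and B). The 2 libraries of a time thus lay farther apart than the times. The block differences rest on the broad regions: with regions of at most 10 kb, H2-D to H2-Q minus H2-T and H2-M was -0.170 percentage points and no longer passed. With the better-scored 50% of each list no called difference passed: H2-K was 3.68 and class II 3.22 points above H2-D to H2-Q, and class II 1.96 points above H2-T and H2-M.

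Across time, the class II cover was 16.7% and 11.6% unstimulated, 18.2% and 8.16% at 60 min, 20.9% and 6.57% at 120 min and 23.3% and 13.3% at 240 min (A and B). Cover of the H2-D to H2-Q block was 4.09% and 1.66% unstimulated, 2.69% and 2.94% at 60 min, 4.02% and 1.15% at 120 min and 2.91% and 2.74% at 240 min. In both blocks the LPS libraries overlap the unstimulated ones. In the H2-T and H2-M block it was 9.32% and 9.33% unstimulated, 5.34% and 6.43% at 60 min, 8.11% and 7.78% at 120 min and 8.47% and 7.49% at 240 min. With regions of at most 100 kb all 6 LPS libraries were below both unstimulated ones there, most at 60 min, and this was not tested. That order rests on the width limit. With regions up to 1 Mb the cover of this block was 9.32% and 9.33% unstimulated and 11.4% and 9.63% at 60 min. At that limit it was 30.1% and 10.5% at 120 min and 10.5% and 7.49% at 240 min.

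**Figure D4:**
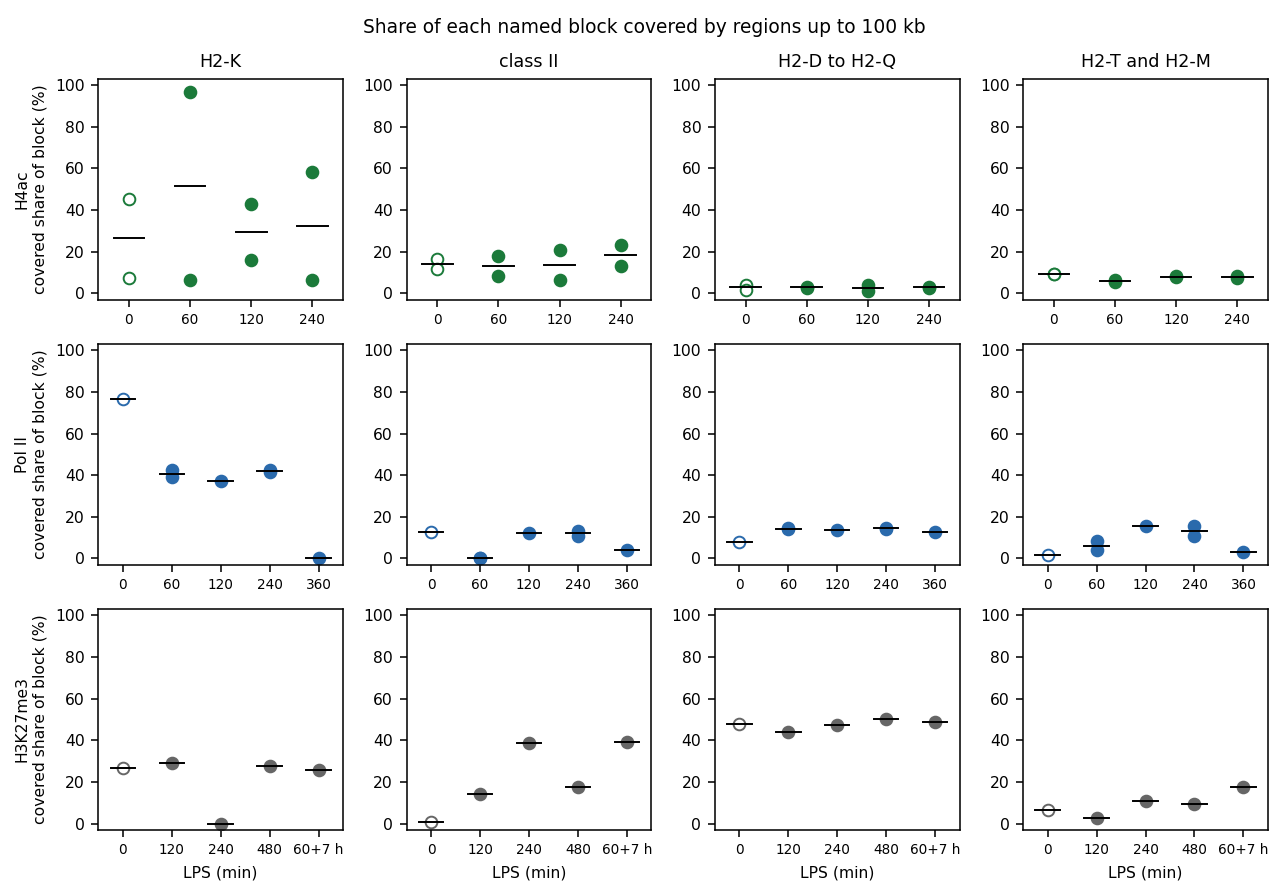
Share of each named block covered by regions of at most 100 kb, in percent, against time of LPS in minutes, for H4ac, Pol II and H3K27me3, with open points for unstimulated libraries, filled points for LPS libraries and a bar at the mean of each time. H4ac in the H2-K block spreads from 6.24% to 96.5%, Pol II in the class II block is at 0 in both 60 min libraries, and H3K27me3 stays between 44.1% and 50.4% in the H2-D to H2-Q block.

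H4ac regions of at most 10 kb formed 109 sites in the complex. Of these, 28 (25.7%) were held by all 8 lists, against 23.4% of 24295 sites in the rest of the genome, and 15 (13.8%) by 1 list, against 19.6%. The best-ranked site held by all was chr17:34256511-34260640, between the H2-K and class II blocks, with a mean rank in the top 0.912% of its lists. It coincided with the p65 site seen at rest and at 60 min and with Pol II in 7 of 7 lists. In the H2-T and H2-M block the sites chr17:36045891-36055890 (mean rank 1.86%) and chr17:36155581-36163700 (7.46%) were held by all lists. The H2-D to H2-Q block had chr17:35393951-35403300 (12.2%), the class II block chr17:34323331-34325900 (14.0%) and the H2-K block chr17:34114731-34119100 (56.4%). Mean ranks hide differences between times. The class II site ranked 5676 and 2645 unstimulated, 3830 and 9229 at 60 min, 60 and 235 at 120 min and 126 and 133 at 240 min (A and B). In the same order chr17:36155581-36163700 ranked 4588 and 2164, 1660 and 3862, 71 and 49, and 81 and 46. The site chr17:34256511-34260640 went the other way, from 114 and 67 unstimulated to 298 and 472 at 240 min. These ranks were not tested.

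An H4ac site counted as gained at a time when it was in both lists of that time and in neither unstimulated list, and as lost when the reverse was true. At 60 min 4 of 109 sites (3.67%) were gained, against 2.7% of the 24404 H4ac sites of the genome, and 7 (6.42%) were lost, against 12.8%. At 120 min 7 (6.42%) were gained, against 3.85%, and 10 (9.17%) lost, against 15.8%. At 240 min 8 (7.34%) were gained, against 5.57%, and 3 (2.75%) lost, against 11.1%. The shares of the complex and of the genome were not tested against each other, and the counts rest on the width limit. With regions up to 100 kb merged into sites, gained and lost were 2 and 3 at 60 min, 4 and 3 at 120 min and 4 and 0 at 240 min. Of 10 sites gained at any time, 2 were gained at all 3 times and 5 at 2 times, and of 12 lost at any time 2 were lost at all 3 and 4 at 2.

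Calls depend on width. All 10 gained sites lay under a wider region of an unstimulated list, which for most was a single region of 12798390 bp in list A, and 2 lay under one of at most 1 Mb. Of the 12 lost sites, 11 lay under a wider region of an LPS list that lacked them, 7 of them under one of at most 1 Mb. Calls also rest on single libraries. Without unstimulated A the gained sites were 12 at 60 min, 12 at 120 min and 16 at 240 min, and without unstimulated B the lost sites were 23 at 60 min, 25 at 120 min and 13 at 240 min. Without LPS list A the lost sites were 20 at 60 min, 18 at 120 min and 9 at 240 min. Without LPS list B the gained sites were 14 at each of the 3 times, and 7 were lost at 240 min.

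In the class II block 3 sites were gained and 3 lost. The gained sites chr17:34384211-34388710 and chr17:34484071-34486230 were held by all 6 LPS lists and no unstimulated list, although a region of 159790 bp in unstimulated list A lay over both. The third, chr17:34594481-34595080, was gained at 240 min. The lost sites lay between the second and the third gained one. The site chr17:34500721-34502540 was held by both unstimulated lists and no LPS list, chr17:34491351-34493380 was lost at 60 and 120 min, and chr17:34573201-34576180 was lost at 60 min and held again by both lists at 120 and 240 min.

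In the H2-T and H2-M block 3 sites were gained at both 120 and 240 min. The site chr17:36179901-36181220 ranked 4547 and 880 at 120 min and 4227 and 2182 at 240 min (A and B). The site chr17:36257741-36260030 ranked 3240 and 1512 at 120 min and 7807 and 1539 at 240 min. The site chr17:36167241-36169910 ranked 2349 and 3015 at 120 min and 3176 and 7696 at 240 min. At 60 min list A alone held all 3, at ranks 17907, 15136 and 17494, far lower than at the later times. The lost site of this block was chr17:36056241-36056640, at 120 and 240 min.

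The H2-D to H2-Q block had 2 gained and no lost sites. The site chr17:35438671-35439140 was gained at 120 and 240 min and chr17:35576201-35576500 at 60 min. Both were short, and both lay inside H3K27me3 of 5 of 5 lists. The H2-K block had no gained and no lost site. Between the blocks, chr17:34995201-35000540 was gained at 120 and 240 min, chr17:35888521-35889510 was gained at 60 min, and chr17:33917731-33919130 was lost at all 3 times.

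**Figure D5:**
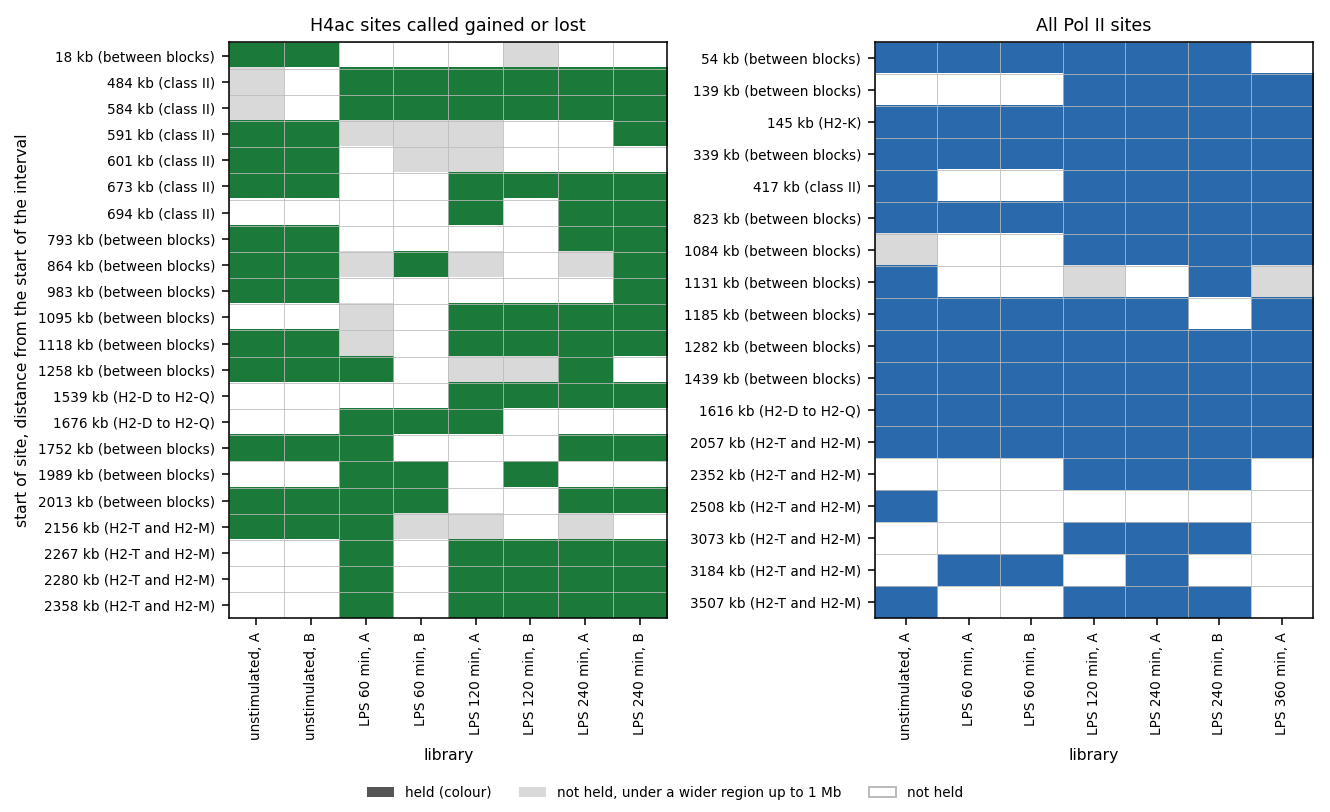
H4ac sites called gained or lost, and all 18 Pol II sites, in rows by distance from the start of the interval, with libraries in columns from unstimulated to the latest time. Filled squares mark lists that hold a site, grey squares lists with only a wider region of at most 1 Mb over it. The 3 lowest H4ac rows, from the H2-T and H2-M block, are empty in both unstimulated libraries and filled in all 4 libraries at 120 and 240 min.

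Pol II formed long sites in the complex. Its regions of at most 100 kb joined into 18 sites. Their median width was 30275 bp, and that of the 5954 sites in the rest of the genome 9105 bp. Of the 18, 7 (38.9%) were held by all 7 lists, against 11.8% in the rest, and 1 (5.56%) by a single list, against 41.4%. These shares describe merged sites, and a longer site has more chances to be held, so they were not tested. The number of members was 56 unstimulated, 63 and 57 at 60 min, 50 at 120 min, 71 and 71 at 240 min and 37 at 360 min.

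The site that covers the start of the H2-T and H2-M block, chr17:35956761-36184840, was the best placed. It ranked 55 in the unstimulated list, 66 and 69 at 60 min, 87 at 120 min, 92 and 73 at 240 min and 79 at 360 min. The single unstimulated list had the best rank, and the 7 ranks spanned 55 to 92. The H2-K site, chr17:34045391-34176520, ranked 1519 unstimulated, 504 and 395 at 60 min, 99 at 120 min, 127 and 348 at 240 min and 94 at 360 min. Every LPS list ranked it better than the single unstimulated list. The rank is that of the best-scored region in the merged site, and this site begins before the H2-K block. The ranks thus do not place that region inside the block, of which the 360 min list covered 0.31%. Pol II at the p50 site of the H2-D to H2-Q block, chr17:35516091-35522500, ranked 1203 unstimulated, 2247 and 2637 at 60 min, 1224 at 120 min, 2448 and 3839 at 240 min and 2702 at 360 min. There the unstimulated list had the best rank.

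The class II site of Pol II, chr17:34316621-34356230, was held before stimulation and from 120 min on but not at 60 min. It ranked 5316 in the unstimulated list, 269 at 120 min, 361 and 713 at 240 min and 290 at 360 min. Neither 60 min list held it, and 60 min list A had no region of any width over it, while a region of 1320230 bp in list B did. The covered share of the class II block followed, with 12.9% unstimulated, 0% and 0% at 60 min, 12.3% at 120 min, 11.0% and 13.2% at 240 min and 3.84% at 360 min. All 8 H4ac lists touched this site.

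Pol II covered 39.9% ± 22.1 of the H2-K block, 7.60% ± 6.09 of class II, 13.1% ± 2.31 from H2-D to H2-Q and 8.47% ± 5.84 of the H2-T and H2-M block (SD, n = 7 libraries). The H2-K block was above each of the others in 6 of 7 libraries, with an exact sign-flip permutation adjusted p of 0.0625 for each, over 6 pairs. No pair of blocks passed the threshold of 0.05. By time, the H2-K cover was 76.5% unstimulated, 39.0% and 42.4% at 60 min, 37.2% at 120 min, 42.7% and 41.5% at 240 min and 0.31% at 360 min, where a region of 2598970 bp lay over the block. Cover of the H2-T and H2-M block was 1.48% unstimulated, 3.97% and 8.43% at 60 min, 15.7% at 120 min, 10.8% and 15.6% at 240 min and 3.30% at 360 min. The low unstimulated value rests on the width limit of 100 kb. With regions up to 1 Mb the cover of this block was 11.7% unstimulated, 12.3% and 8.67% at 60 min and 15.7% at 120 min. At that limit it was 10.8% and 15.6% at 240 min and 6.83% at 360 min. With regions of at most 10 kb, every pair of blocks passed, with the H2-K block 9.77, 5.63 and 8.84 percentage points above class II, H2-D to H2-Q and H2-T and H2-M.

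Pol II sites were called as for H4ac. At 60 min 1 of 18 sites was gained (5.56%), against 7.08% of the genome's 5972 sites, and 4 lost (22.2%), against 29.5%. At 120 min 4 were gained (22.2%), against 10.2%, and 2 lost (11.1%), against 40.7%. At 240 min 4 were gained (22.2%), against 8.62%, and 1 lost (5.56%), against 31.6%. At 360 min 2 were gained (11.1%), against 6.66%, and 4 lost (22.2%), against 44.6%. These counts rest on 18 sites and on the width limit. With regions up to 10 kb the lost sites were 12 at 60 min, 16 at 120 min, 11 at 240 min and 15 at 360 min. Up to 1 kb they were 11, 15, 11 and 13 in the same order, and at 240 min 1 was gained. With 240 min list A or B left out 2 sites were lost at 240 min, and without 60 min list B 2 were gained at 60 min. The single unstimulated library has a title date that no other Pol II library shares, so date and stimulation cannot be told apart.

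In the H2-T and H2-M block Pol II was gained at chr17:36252201-36282500 at 120 and 240 min, ranked 1031 at 120 min and 1618 and 1702 at 240 min. The unstimulated list and both 60 min lists had no region of any width over it. It contains the H4ac site chr17:36257741-36260030, gained at the same times, and a p50 site seen in LPS lists A and B. In the same block chr17:36973061-37003310 was gained at 120 and 240 min and chr17:37084061-37088580 at 60 min, while chr17:36408111-36408550 was lost at all 4 times. The site chr17:34984211-34999610 was gained from 120 to 360 min at the place of the H4ac gain at chr17:34995201-35000540, although a region of 140230 bp in the unstimulated list lay over it. The site chr17:34038761-34041010 was gained at the same 3 times.

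H3K27me3 was listed in the H2-D to H2-Q block by every list. The median width of its 15 sites was 49300 bp, and that of 3279 sites in the rest of the genome 30900 bp. Of the 15 sites, 5 (33.3%) were held by all 5 lists, against 32.4% in the rest. In the H2-D to H2-Q block the sites were chr17:35413121-35497040 and chr17:35554781-35582510. The shorter of them ranked 124 unstimulated, 54 at 120 min, 110 at 240 min, 118 at 480 min and 123 in the 60 min plus 7 h list. Together they covered 47.8% of the block unstimulated, 44.1% at 120 min, 47.5% at 240 min, 50.4% at 480 min and 48.6% in the 60 min plus 7 h library. The cover of this block moved least with time of all 4 blocks.

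The class II block had 2 H3K27me3 sites held by all 5 lists, chr17:34387521-34490470 and chr17:34512891-34659180. Regions of at most 100 kb covered 0.80% of the block unstimulated, 14.0% at 120 min, 38.6% at 240 min, 17.7% at 480 min and 39.4% in the 60 min plus 7 h library. These values depended on region width. With regions of at most 1 Mb the cover was 36.4%, 56.0%, 38.6%, 70.7% and 39.4% in the same order. Between the class II and H2-D blocks, chr17:34792001-34841300 was held by all lists, at ranks from 160 to 370. The site chr17:34171081-34238950 reached from the H2-K block into the stretch after it. It was held by 4 lists and not at 240 min, and no site lay before the H2-K block.

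At 120 min 4 of the 15 H3K27me3 sites were gained (26.7%), against 2.73% of the genome's 3294 sites, and 2 lost (13.3%), against 31.9%. At 240 min 4 were gained (26.7%), against 3.34%, and 3 lost, against 27.2%. At 480 min 4 were gained (26.7%), against 17.9%, and 3 lost, against 11.2%. In the 60 min plus 7 h list 5 were gained (33.3%), against 19.4%, and 2 lost (13.3%), against 10.5%. All 6 sites gained at any time lay under a wider region of the unstimulated list, 4 of them under one of at most 1 Mb. Of 4 sites lost at any time, 2 lay under a wider region, of at most 1 Mb, of an LPS list that lacked them. The site chr17:36277831-36378170, lost at 120 and 480 min, lay under regions of 101030 and 105970 bp there, just over the limit of 100 kb. The 3 sites gained in all 4 LPS lists lay side by side in the H2-T and H2-M block, from chr17:37000211-37084880 to chr17:37178721-37189940, under an unstimulated region of 198960 bp. With 1 library a time there is no replicate check, and date and stimulation cannot be told apart.

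The share of sites that touched a site of another target was above that in the rest of the genome for some pairs and below it for others. The shares are of each list of sites, and none of the differences was tested. Of 19 p50 sites, 13 (68.4%) touched H4ac, against 52.3% in the rest of the genome, and 12 (63.2%) touched Pol II, against 35.5%. Of 109 H4ac sites, 63 (57.8%) touched Pol II, against 39.5%, and 13 (11.9%) touched p50, against 5.08%. Of 18 Pol II sites, all touched H4ac, against 90.7%, and 7 (38.9%) touched p50, against 12.1%. Active and repressive marks also met: 16 H4ac sites (14.7%) touched H3K27me3, against 7.01%, and 7 Pol II sites (38.9%) did, against 7.46%. Of 16 ATF3 sites, 9 (56.3%) touched H4ac, against 41.0%. Other pairs went the other way. Of the 19 p50 sites, 1 (5.26%) touched p65, against 19.5% in the rest of the genome, 2 (10.5%) touched ATF3, against 24.4%, and 1 (5.26%) touched H3K27me3, against 11.3%. Of the ATF3 sites 1 (6.25%) touched p65, against 20.4%, and of the H4ac sites 8 (7.34%) touched ATF3, against 10.4%. Sites of Pol II and H3K27me3 are long here, and the part of site width and of the high cover in these shares was not tested.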

How the data were processed

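Each of the 35 libraries had 1 deposited list of regions on mm9, per the submitters' processing notes. Reads were single-end with 36 cycles, per the labels' protocols. Each deposited region carries a score set by the authors, used here to rank regions inside 1 list. The sources used here name no aligner or caller, and depth is unknown. Lists were nested, with widths from 100 bp in steps of 10 bp. No genome or annotation of mm9 was used, so no gene name was given to a region, and macrophage marker genes were not checked.

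Samples were grouped by target, LPS time and title letter. Nothing in the labels says that replicates were separate cultures or animals, so p-values measure the spread between libraries, which may be technical. No 2 lists of a group were copies, with at most 23 identical regions between any pair. Regions of a target overlapping by at least 1 bp were merged into sites, from regions of at most 10 kb for p50, p65, ATF3 and H4ac and at most 100 kb for Pol II and H3K27me3. A list held a site if a region within that limit touched it. The rank of a site in a list was that of its best-scored region there. Of the members, 21 crossed the edge of the left-out stretch and only their parts outside it entered the cover. A region across a block border counted in the block of its midpoint.

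Tests were exact permutation tests over libraries, with Benjamini-Hochberg adjustment over 5 targets or 6 block pairs. Sites named were those held by the most lists in each block and target, up to 3, ordered by rank, and up to 3 gained and 3 lost H4ac and Pol II sites per block. The members, blocks and lists were chosen with earlier results of these data known. Alternatives were the width limit, the overlap, the better-scored 50% of each list, the left-out stretch kept, replicates left out and a replicate block. The calls and tests were checked on simulated lists. Python 3.11.15, numpy 2.4.6, pandas 2.3.3, scipy 1.17.1 and matplotlib 3.10.9 were used.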

Additional observations from a re-analysis of the deposited data

Results flagged for a closer look

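The p50 library C at 60 min of LPS had a cover ratio of 3.35 between the interval and the rest of the genome, far from the other 3 libraries of its group by Dixon's criterion at 95%. Chance marks about 1 in 20 groups in this way.

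With regions of at most 100 kb, H4ac cover of the stretch between the H2-Q and H2-T blocks moved in opposite directions at 2 times. It was 15.2% and 5.60% unstimulated, 22.1% and 20.9% at 60 min, 7.28% and 6.16% at 120 min and 4.73% and 2.22% at 240 min (A and B). The mean was 11.1 percentage points above unstimulated at 60 min, with both libraries above both unstimulated ones, and -6.94 points relative to unstimulated at 240 min, with both below. The 240 min values rest on the width limit, since a region of 113790 bp in list A, just over 100 kb, was left out of them. With regions up to 1 Mb the cover was 15.2% and 5.60% unstimulated, 22.1% and 32.0% at 60 min, 14.8% and 16.1% at 120 min and 16.9% and 2.22% at 240 min, so that list A at 240 min was then above both unstimulated lists. The rise at 60 min rests on the width limit as well. With regions of at most 10 kb the cover was 6.31% and 5.60% unstimulated and 4.815% and 4.94% at 60 min. At that limit it was 4.73% and 2.22% at 240 min, so both times lay below unstimulated. The difference between the times was not tested. With regions of at most 100 kb, the libraries of 1 title date, letter B, show both directions.

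Outside the members, 70 regions wider than 100 kb overlapped the interval. H4ac had 21 of them, H3K27me3 20, Pol II 18, p50 4, p65 4 and ATF3 3.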

How the results depend on the processing

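Of 169 values recomputed under another setting, 100 kept their direction and side of the threshold, or stayed within 1.5 times, and the cause of each change was not tested. The p50 difference between LPS and unstimulated lists turned to -0.463 kb as covered length and to -0.173 percentage points as a share of the list, and the H4ac difference to -134 kb as covered length. Title letters did not pair p50 libraries, with same-letter correlations of 0.0620, 0.0183 and 0.225. With a replicate block the differences were 3.33 for p50 and 3.83 for H4ac (exact permutation p = 0.5 for each), p50 sites gained were 2, and H4ac calls did not move. On the log2 scale, the p50 cover ratio was 1.72 with regions up to 10 kb, 2.23 up to 1 kb and 1.36 in the better-scored 50%, each then past the threshold, and -0.58 up to 1 Mb, a limit chosen after seeing the data. The ATF3 ratio was 0.28 up to 1 kb, where H3K27me3 gave no value. Members in the better-scored 50% were 51 for H3K27me3, 7 for p65 and 7 for ATF3, and H3K27me3 had 27 up to 10 kb.

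H4ac sites lost were 3 at 60 min and 6 at 120 min, and 8 gained at 60 min, with regions up to 1 kb. Those lost at 240 min were 6 with at least 50% of the site covered and 6 in the better-scored 50%. With regions up to 100 kb gained and lost were 2 and 3 at 60 min, 4 and 3 at 120 min and 4 and 0 at 240 min. Pol II sites gained and lost with regions up to 1 kb were 4 and 11 at 60 min, 11 and 15 at 120 min, 1 and 11 at 240 min and 12 and 13 at 360 min. Up to 10 kb they were 3 and 12 at 60 min, 7 and 11 at 240 min and 6 and 15 at 360 min, and 16 were lost at 120 min. With at least 50% of the site covered they were 7 and 4 at 120 min, 8 and 2 at 240 min and 1 and 7 at 360 min. In the better-scored 50% they were 2 and 1 at 60 min, with 7 gained at 120 min, 3 lost at 240 min and 6 gained at 360 min.

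Block differences in H4ac cover, in percentage points, changed as follows. Up to 10 kb, H2-K minus class II (3.40) and H2-K minus H2-T and H2-M (6.61) passed, and H2-D to H2-Q minus H2-T and H2-M (-0.170) did not. Up to 1 kb, H2-K minus class II (-0.0825), H2-K minus H2-D to H2-Q (-0.0159) and H2-D to H2-Q minus H2-T and H2-M (0.453) turned round, and class II minus H2-D to H2-Q (0.0666) did not pass. In the better-scored 50% H2-K minus H2-D to H2-Q (3.68), class II minus H2-D to H2-Q (3.22), class II minus H2-T and H2-M (1.96) and H2-D to H2-Q minus H2-T and H2-M (-1.27) did not pass. Up to 1 Mb H2-K minus H2-T and H2-M (49.9) passed. For Pol II up to 10 kb every pair passed: H2-K minus class II 9.77, minus H2-D to H2-Q 5.63 and minus H2-T and H2-M 8.84, class II minus H2-D to H2-Q -4.14 and minus H2-T and H2-M -0.926, and H2-D to H2-Q minus H2-T and H2-M 3.21, which was -0.396 in the better-scored 50%.

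Leaving out 1 library gave ranges of 2.67 to 5.0 for the p50 difference, -16.2 to 23.8 for H4ac, and 0.60 to 1.35, 1.69 to 1.75, 2.50 to 2.67 and 2.22 to 2.44 for the log2 cover of p50, H4ac, Pol II and H3K27me3. H4ac sites gained ranged from 4 to 14 at 60 min, 7 to 14 at 120 min and 8 to 16 at 240 min, and lost from 8 to 23, 11 to 25 and 4 to 13. Pol II sites gained were 1 to 2 at 60 min and 5 at 240 min, and lost 4 and 2. No p50 call was made. The H4ac block differences, in the order of pairs used for Pol II, ranged from 11.8 to 24.0, 23.3 to 36.3, 18.0 to 31.3, 10.9 to 13.0, 5.93 to 8.22 and -5.34 to -4.63, and those of Pol II from 27.1 to 38.3, 19.9 to 33.4, 24.2 to 37.2, -7.19 to -3.98, -2.91 to 0.395 and 3.69 to 5.76. Depth is unknown, so an absent region is one not listed.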

Other observations

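Between the H2-Q and H2-T blocks the factors met at places that no H4ac, Pol II or H3K27me3 region within the width limits of the sites touched. The p65 site chr17:35675731-35677620 (120 min, list C, rank 3) overlapped the p50 site chr17:35677451-35677660 (unstimulated list D, rank 183) and the ATF3 site chr17:35677491-35677660 (240 min, list B, rank 140). The p50 site chr17:35710661-35711080 was held by LPS list D at rank 205 and by unstimulated list A at rank 231, and overlapped the ATF3 site chr17:35710951-35711080 (240 min, list C, rank 155). Each overlap joins lists made with different antibodies.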
